A study of Mus musculus with 4 samples.

Results

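Mature B cells of the mouse spleen fall into follicular, marginal zone and B1 cells, and 10 genes that tell these cells apart or guide their choice were followed here in activated B cells lacking the chemokine scavenger Ackr4. They are Cr2, Cd1d1 and Cd9 of marginal zone cells, Fcer2a of follicular cells, Cd5 and Zbtb32 of B1 or activated cells, the receptor Notch2 and its target Dtx1, and Bhlhe41 and Plac8. They were chosen by name: every array probe annotated with one of these symbols was taken, which gave 15 of the 39429 probes and 10 of the 29861 genes on the array. All 10 genes had at least 1 probe above the filter on dim signal and were among the 15963 genes tested.

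B cells were purified with magnetic beads from spleens of male Ackr4-deficient mice (Ackr4ko, 73 and 71 days old) and male C57BL/6 mice (WT, 77 and 74 days old). Cells of both genotypes spent 3 days in culture with anti-IgM to trigger the B cell receptor and with anti-CD40 (clone FGK4.5) in place of T cell help, each at 10 µg/mL. The study holds 2 experiments on separate donors, and each gave 1 array per genotype (n = 2 per group). Replicates 1 and 2 are experiments 1 and 2. How the Ackr4 deficiency was made, whether an array holds 1 mouse or a pool, and which of these cell types each culture began with are not given in the sources used here.

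In the spleen, B cells that receive a Notch2 signal from stromal ligands become marginal zone cells, which face the blood, carry much CD21 (Cr2) and CD1d and little CD23 (Fcer2a), and respond quickly to particulate antigen. Follicular cells carry much CD23 and recirculate through B cell follicles. B1 cells are self-renewing cells, a part of which carries CD5, and are a main source of natural antibody. In bulk RNA such as this, fewer cells of a type and less RNA per cell cannot be told apart.

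The measured level is the log2 signal of a 1-colour Agilent array, scaled so that the 75th percentile of every array is 9.88. Of the probes, 54.9% and 49.5% were well above background on the Ackr4ko arrays and 52.6% and 42.2% on the WT arrays. WT replicate 2 had the most outlier spots, 6.24%, while the highest share among the other arrays was 2.12%. Ackr4 itself gave no array with a probe well above background (0 of 4; log2 2.35 to 3.39 on Ackr4ko arrays and 2.74 to 4.69 on WT arrays), so its 2 probes check no label. The deposited files disagree on genotype: in both experiments the authors' value table lists under Ackr4ko the array that its scanner file labels WT, and the reverse, for 4 of 4 columns. Genotypes below are those of the scanner files, every direction turns round if the table is right, and sizes do not depend on this. The 10 B cell identity genes (median difference 0.04), among them Cd79b (17.05 and 17.01 in Ackr4ko, against 17.41 and 17.34 in WT) and Vpreb3 (difference 0.60), were well above background on all 4 arrays.

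The brightest probes, whose values are given for each gene, lie at these positions of mm9, as the array files list them. For the marginal zone genes they are chr1:196965532-196965591 (Cr2), chr3:86799791-86799850 (Cd1d1) and chr6:125410387-125410446 (Cd9). Fcer2a is read at chr8:3682343-3682402, Cd5 at chr19:10792701-10792760 and Zbtb32 at chr7:31374702-31374761. The others are chr3:97953914-97953973 (Notch2), chr5:121130278-121130337 (Dtx1), chr6:145811275-145811334 (Bhlhe41) and chr5:100982797-100982856 (Plac8). All lie on the minus strand other than Notch2, which lies on the plus strand, and exons were not looked up here.

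The first question was how the 10 genes as a set differed between genotypes. Zbtb32 was higher in Ackr4ko in both experiments, 5 genes (Cd1d1, Cd9, Cd5, Notch2 and Bhlhe41) were lower in both, and 4 (Cr2, Fcer2a, Dtx1 and Plac8) differed in opposite directions. Over all tested genes 33% were higher in both experiments, 20.9% lower in both and 46.1% opposite. On 4 of the 10 genes the groups did not overlap, as on 29% of all tested genes. The median log2 difference of the 10 genes, Ackr4ko minus WT, was -0.40 (-0.45 in experiment 1 and -0.58 in experiment 2), beside 0.08 over all tested genes (-0.04 and 0.23). In limma, 0 of the 10 genes passed an adjusted p under 0.05 in the fit without a block (0.0125% of all genes passed it, 0.00626% in each direction), and 2 of the 10, Zbtb32 and Cd5, had an unadjusted p under 0.05, as 4.59% of all genes did. With the experiment as a block the same 2 passed (3.33% of all genes passed it, 2.04% higher and 1.3% lower in Ackr4ko), with limma adjusted p = 0.0031 for Zbtb32 and limma adjusted p = 0.0324 for Cd5. That fit leaves 1 residual degree of freedom and gave every gene the same standard error of 0.35, and after quantile normalization 0% of genes passed it, with limma adjusted p = 0.484 and 0.51 for these 2.

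**Figure D1:**
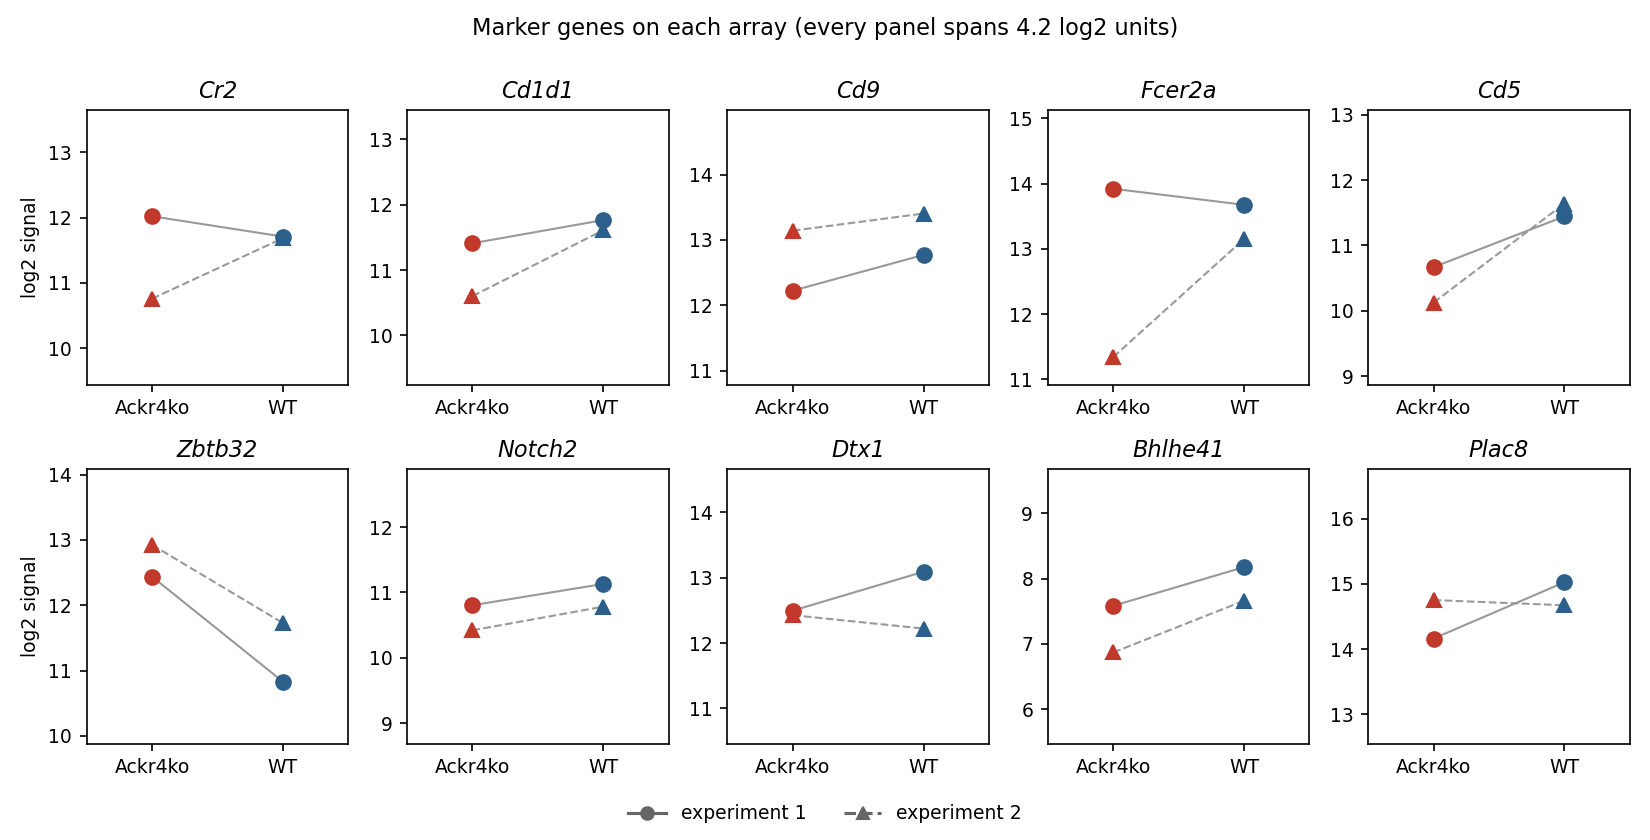
Log2 signal of the brightest probe of each of the 10 genes (vertical axis, every panel spanning the same height) on the Ackr4ko arrays (left, red) and the WT arrays (right, blue), with circles for experiment 1 and triangles for experiment 2 joined by a line. The Ackr4ko points of Zbtb32 (12.44 and 12.92) lie above both WT points, those of Cd5 (10.67 and 10.13) lie below both, and Fcer2a has 1 low point, 11.34, in Ackr4ko of experiment 2.

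Zbtb32, a zinc finger repressor that is induced in activated lymphocytes and is abundant in B1 cells, had a log2 signal of 12.44 and 12.92 on the Ackr4ko arrays, against 10.83 and 11.73 on the WT arrays. Both Ackr4ko arrays were above both WT arrays, as they were for 19% of all tested genes. The level was 3.05-fold higher in Ackr4ko in experiment 1 and 2.29-fold higher in experiment 2. Averaged over both experiments, log2 Ackr4ko minus WT was 1.40 ± 0.40 (SE, n = 2 each; without a block, limma adjusted p = 0.607), and 1.23% of tested genes had a mean difference at least as high. Zbtb32 was the only one of the 10 genes at least 2-fold higher in both experiments, as 1.28% of all genes were, and also the only one at least 2-fold higher in experiment 1 (3.08% of genes) or in experiment 2 (6.08%). Leaving out 1 array moved its mean difference to between 0.95 (WT replicate 1 left out) and 1.85 (WT replicate 2 left out). Markers of natural killer cells, which also use Zbtb32, were read beside it. Of that list of 8, Ncr1, Klrb1c, Klrk1, Gzma and Eomes were well above background on no array, and its summed signal was 827 and 2342 in Ackr4ko, against 820 and 1283 in WT. Its 3 tested genes had a median difference of 0.85, with mean differences of 1.31 (Xcl1), 0.85 (Il7r) and 0.34 (Prf1). The part of such cells in the Zbtb32 difference was not tested.

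Cd5, which encodes an inhibitory co-receptor of T cells and B1a cells that other B cells also gain after B cell receptor stimulation, went the other way. Its log2 signal was 10.67 and 10.13 on the Ackr4ko arrays, against 11.44 and 11.64 on the WT arrays. Both Ackr4ko arrays were below both WT arrays, which held for 10% of all tested genes. Cd5 was 1.71-fold lower in Ackr4ko in experiment 1 and 2.86-fold lower in experiment 2, and the mean on the log2 scale was -1.15 ± 0.35 (SE, n = 2 each; without a block, limma adjusted p = 0.656). A mean difference at least as low was seen in 1.15% of tested genes. Zbtb32 and Cd5, both genes of B1 or activated cells, thus differed in opposite directions.

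T cells are the other spleen cells with much Cd5. Of 10 T cell markers, 8 were tested, 2 were higher in both experiments and 2 lower, and their median difference was -0.08. Their summed signal was 8978 and 12704 on the Ackr4ko arrays, against 8613 and 15713 on the WT arrays, so the groups overlapped. Cd2 made the largest part of that sum on every array, with a log2 signal of 12.49 and 12.95 in Ackr4ko, against 12.33 and 13.45 in WT. The sum thus mainly follows this 1 gene. The markers with the smallest p were the T cell adaptor Lat (0.61) and the CD3 chain Cd3g (-0.47), each with limma adjusted p = 1.00, and Cd8a and Bcl11b were well above background on no array. The part of T cells in the Cd5 difference was not tested.

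**Figure D2:**
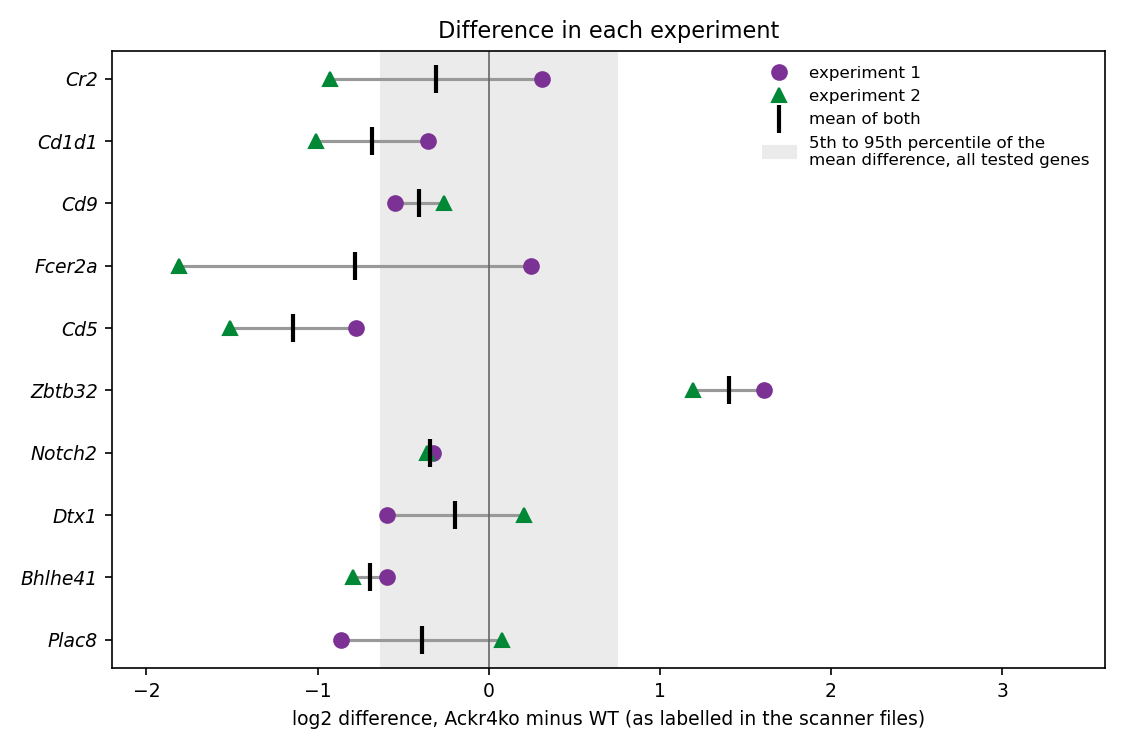
Log2 difference of each of the 10 genes, Ackr4ko minus WT, in experiment 1 (circles), in experiment 2 (triangles) and as the mean of both (black bars), with the 5th to 95th percentile of the mean difference of all tested genes, -0.63 to 0.75, in grey. Zbtb32 lies right of the grey range in both experiments, Cd5 lies left of it in both, and Cr2 and Fcer2a lie on either side of 0.

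Bhlhe41, a basic helix-loop-helix repressor needed for B1a cells in mice, was lower in both experiments on each of its 2 probes. The brighter probe gave a log2 signal of 7.58 and 6.87 on the Ackr4ko arrays, against 8.17 and 7.66 on the WT arrays. The groups did not overlap, but the gap between the lowest WT and the highest Ackr4ko array was smaller than the spread within either group. The differences were -0.59 in experiment 1 and -0.79 in experiment 2, with a mean of -0.69 ± 0.38 (SE, limma adjusted p = 1.00). The mean became -0.34 with Ackr4ko replicate 2 left out and -1.05 with Ackr4ko replicate 1 left out. The dimmer probe gave -1.08 and -1.18 and was well above background on 3 of 4 arrays, all but WT replicate 2.

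Plac8, which encodes a small cysteine-rich protein found in several myeloid and lymphoid cells, had no shared direction. Its brighter probe had a log2 signal of 14.16 and 14.75 on the Ackr4ko arrays, against 15.02 and 14.67 on the WT arrays, so the groups overlapped. The difference was -0.86 in experiment 1 and 0.08 in experiment 2, and the second probe gave -0.41 and 0.15. Macrophage and monocyte markers, read beside it, had a median difference of -0.31 over 4 tested of 10 genes. The summed signal of that list was 38174 and 29077 in Ackr4ko, against 47901 and 50126 in WT, and Lyz2, Cd14, Vcam1 and Fcgr1 were well above background on no array. The macrophage genes with the smallest p were Mpeg1 (-0.78) and Cd68 (0.51). Mpeg1 made the largest part of the summed signal on every array, with a log2 signal of 14.66 and 14.00 in Ackr4ko, against 15.11 and 15.09 in WT. The sum thus mainly follows this 1 gene. Of 8 neutrophil, mast cell and basophil markers 2 were tested, Ly6g (0.72) and Elane (-0.08), with a median of 0.32. The part of myeloid cells in the Plac8 values was not tested.

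The marginal zone genes were read next. Cr2 encodes complement receptor CD21, which lowers the threshold of the B cell receptor for antigen tagged with complement. Its log2 signal was 12.02 and 10.76 on the Ackr4ko arrays, against 11.71 and 11.68 on the WT arrays. The WT arrays were nearly equal, while the Ackr4ko arrays lay on either side of them. The difference was 0.31 in experiment 1 and -0.93 in experiment 2, and the second Cr2 probe gave 0.25 and -0.80. The mean difference of -0.31 ± 0.44 (SE, limma adjusted p = 1.00) became 0.32 without Ackr4ko replicate 2.

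Cd1d1 encodes CD1d, which presents lipids to natural killer T cells. Its brighter probe had a log2 signal of 11.41 and 10.60 on the Ackr4ko arrays, against 11.77 and 11.61 on the WT arrays. The groups did not overlap on this probe, with differences of -0.36 and -1.01 and a mean of -0.68 ± 0.37 (SE, limma adjusted p = 1.00). Without Ackr4ko replicate 2 the mean was -0.28, and without Ackr4ko replicate 1 it was -1.09. On the second probe they did overlap, with 9.35 and 8.40 in Ackr4ko, against 9.16 and 9.29 in WT, and differences of 0.19 and -0.89. The near-identical gene Cd1d2, read because its probe also matches a Cd1d1 transcript in the array's annotation, gave 0.24 and -1.02, so signal of the pair cannot be told apart there. The probes of Cd1d1 thus shared a negative difference in experiment 2 and disagreed in experiment 1.

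Cd9, a tetraspanin of marginal zone, B1 and plasma cells, had a log2 signal of 12.22 and 13.14 on the Ackr4ko arrays, against 12.77 and 13.40 on the WT arrays. It was lower in Ackr4ko by 0.55 and 0.26 within the experiments, while both genotypes were brighter in experiment 2, so the groups overlapped. The mean difference was -0.41 ± 0.42 (SE, limma adjusted p = 1.00), and it turned to 0.054 without Ackr4ko replicate 1. Plasma cell markers had a median difference of -0.10 over 8 tested of 9 genes, with 4 higher in both experiments and 1 lower. Their summed signal was 78849 and 119211 in Ackr4ko, against 58999 and 83977 in WT. Mzb1 made the largest part of that sum on every array, with 15.70 and 16.48 in Ackr4ko, against 15.01 and 15.89 in WT. Mzb1 is also among the other marginal zone genes read below. Platelets, which are rich in CD9, were read from a list of platelet and erythroid markers. Of that list of 8, 1 gene, the erythroid gene Slc4a1, was tested (-0.01). The platelet genes Pf4, Ppbp, Itga2b, Gp9 and Gp1bb were well above background on no array. The plasma cell genes with the smallest p were Ell2 (0.64) and Mzb1 (0.64). The part of these cells in the Cd9 values was not tested.

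The sequences upstream of these genes are shown because Notch2 acts through the DNA-binding protein RBPJ, whose site holds the letters GTGGGAA, and Bhlhe41 binds the E-box CACGTG. RefSeq promoters (GRCm38.p6) were found for 9 of the 10 genes, all but Cd1d1, with 13 start sites, and the 250 bases before each start were searched on both strands. GTGGGAA was present before Cr2 and Cd9, the marginal zone genes with an entry, and in 5.42% of all 32851 promoters. CACGTG was present before Bhlhe41 itself and in 6.02% of all promoters. The 3 sequences printed were picked after the matches were seen. They lie on the minus strand at chr1:195176720-195176969 (Cr2), chr6:125494761-125495010 (Cd9) and chr6:145865421-145865670 (Bhlhe41), and capitals mark the motif:
Cr2: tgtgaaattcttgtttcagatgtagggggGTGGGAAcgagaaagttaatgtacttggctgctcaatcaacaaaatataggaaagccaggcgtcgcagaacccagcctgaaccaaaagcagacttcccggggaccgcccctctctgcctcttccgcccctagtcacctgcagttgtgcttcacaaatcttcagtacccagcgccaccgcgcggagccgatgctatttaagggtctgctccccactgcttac
Cd9: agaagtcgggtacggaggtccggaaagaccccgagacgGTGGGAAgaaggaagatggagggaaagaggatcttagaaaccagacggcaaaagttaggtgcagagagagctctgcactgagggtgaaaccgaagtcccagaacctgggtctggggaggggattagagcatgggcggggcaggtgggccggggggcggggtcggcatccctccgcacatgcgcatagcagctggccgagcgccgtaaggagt
Bhlhe41: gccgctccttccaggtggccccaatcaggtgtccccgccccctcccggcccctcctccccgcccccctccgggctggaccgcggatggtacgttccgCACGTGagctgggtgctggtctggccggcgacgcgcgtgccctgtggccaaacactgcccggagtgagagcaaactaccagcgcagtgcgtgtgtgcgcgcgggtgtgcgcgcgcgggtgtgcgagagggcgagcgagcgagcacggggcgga

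The motif began 221 bases before the start in Cr2, 212 in Cd9 and 153 in Bhlhe41. The shorter RBPJ core TGGGAA, which the longer motif contains, was also present before Fcer2a and Cd5 and in 21.6% of all promoters. Of 4 further motifs searched, the NF-kappaB motif was present before Cd9 (1.41% of all promoters) and GAGGAA of ETS factors before Cd5, Dtx1 and Plac8 (23.3%). The octamer ATTTGCAT (1.6%) and the EGR site GCGTGGGCG (0.536%) were present before none of the 9 genes in this window. A match describes these letters only, and no binding was measured.

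Fcer2a encodes CD23, the low-affinity IgE receptor that marks follicular B cells and is raised by CD40 and interleukin 4. Its log2 signal was 13.92 and 11.34 on the Ackr4ko arrays, against 13.67 and 13.15 on the WT arrays. The array of Ackr4ko replicate 2 was the low one, below the other 3 arrays. The difference was 0.25 in experiment 1 and -1.81 in experiment 2, where the level was 3.50-fold lower in Ackr4ko. A difference at least as low in experiment 2 was seen in 0.958% of tested genes, and a gap between the experiments at least as negative in 0.796%. The mean was -0.78 ± 0.71 (SE, limma adjusted p = 1.00) and turned to 0.51 without Ackr4ko replicate 2.

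Fcer2a, Cd1d1 and Cd5 were at least 2-fold lower in Ackr4ko in experiment 2, as 3.98% of tested genes were. In experiment 1 none of the 10 was, against 1.56% of tested genes. In experiment 2 Cr2 and Bhlhe41 came next at -0.93 and -0.79. No gene of the 10 was at least 2-fold lower in both experiments, which held for 0.514% of all genes. Marginal zone and follicular markers therefore differed in the same direction in experiment 2. In experiment 1, Cr2 and Fcer2a were both slightly higher in Ackr4ko, and Cd1d1 and Cd9 were lower.

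**Figure D3:**
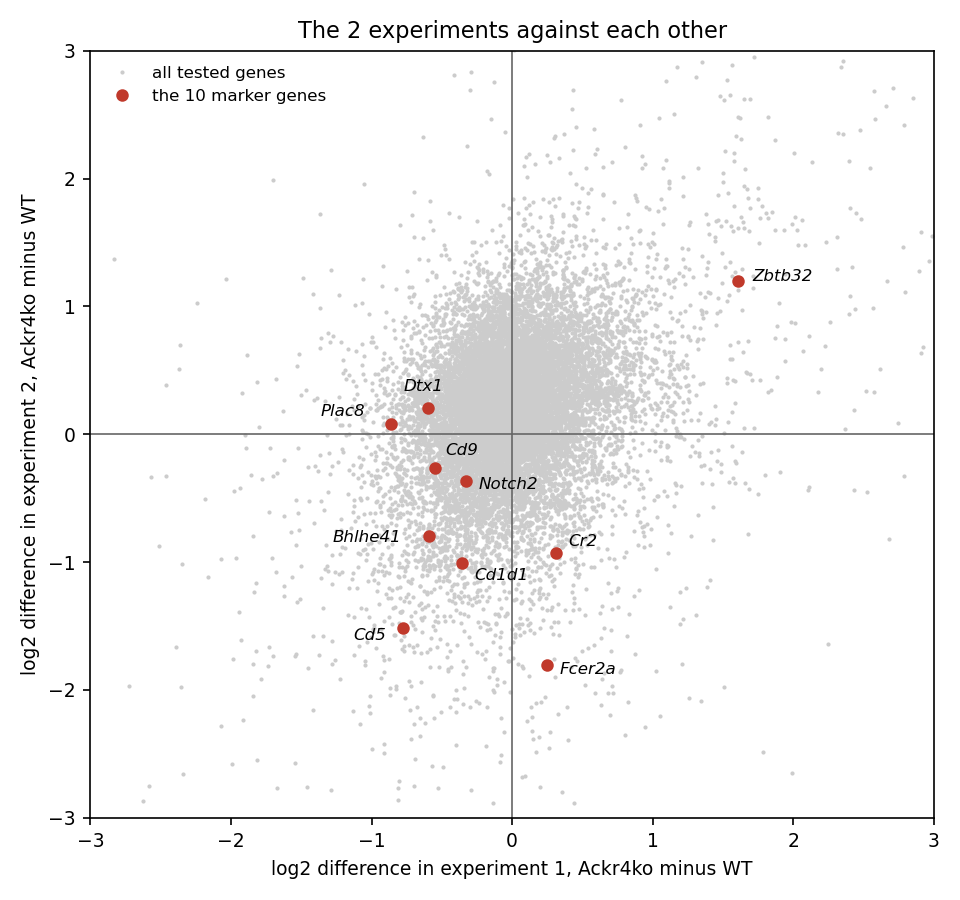
Log2 difference, Ackr4ko minus WT, in experiment 1 (horizontal axis) and experiment 2 (vertical axis) for the 10 marker genes (red, named) and all tested genes (grey), with 71 genes outside the plotted range of -3 to 3. Among the markers Zbtb32 lies alone at the upper right, Cd5 lies at the lower left, and Fcer2a and Cr2 lie below 0 on the vertical axis alone.

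Notch2, the receptor whose signal commits B cells to the marginal zone fate, had nearly the same small difference in both experiments. Its log2 signal was 10.80 and 10.42 on the Ackr4ko arrays, against 11.13 and 10.78 on the WT arrays. Each Ackr4ko array was below the WT array of its experiment, by 0.33 and 0.36, but the groups overlapped because experiment 2 was dimmer in both genotypes. The mean difference was -0.34 ± 0.34 (SE, limma adjusted p = 1.00), and a second Notch2 probe was well above background on 1 of 4 arrays. With 1 Ackr4ko array left out the Notch2 mean was -0.15 (replicate 2) or -0.54 (replicate 1), and with 1 WT array left out it was -0.17 (replicate 1) or -0.52 (replicate 2). Dtx1, a ubiquitin ligase gene that Notch signalling switches on, had a log2 signal of 12.50 and 12.43 on the Ackr4ko arrays, against 13.09 and 12.22 on the WT arrays. Its Ackr4ko arrays lay between the WT arrays, and the differences were -0.60 and 0.21. The mean of -0.20 ± 0.38 (SE, limma adjusted p = 1.00) turned to 0.24 without WT replicate 1.

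The rest of the Notch pathway was read from a list of 33 genes, of which 26 were tested. The median difference was 0.01, with 4 genes higher in both experiments and 7 lower, and 0 passed limma without a block. With the block 3.33% of all genes passed (0% after quantile normalization), and of these 26 genes 1 did, the Notch ligand Jag2, which was higher in Ackr4ko. Its log2 signal was 7.36 and 8.59 on the Ackr4ko arrays, against 5.91 and 6.92 on the WT arrays, with a mean difference of 1.56 ± 0.50 (SE, limma adjusted p = 0.000551 with the block and 0.735 without). The groups did not overlap. Notch3, the ligands Dll1, Dll4 and Jag1 and the target genes Hes1 and Hey1 were well above background on no array. The target gene Hes5 was well above background on all 4 arrays, with 11.15 and 11.72 in Ackr4ko, against 11.59 and 11.06 in WT. Its differences were -0.45 in experiment 1 and 0.66 in experiment 2. The target gene Nrarp was also tested (mean difference 0.04).

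Related genes of the 3 cell types were read from lists that leave out the 10 genes. Of 12 other marginal zone genes 9 were tested, with a median difference of -0.03, 3 higher in both experiments and 2 lower, and 0 passed either fit. The sphingosine 1-phosphate receptor S1pr1, which holds B cells in the marginal zone, had the smallest p, with 8.89 and 8.13 in Ackr4ko, against 9.75 and 9.13 in WT (mean difference -0.93, limma adjusted p = 1.00 without and 0.149 with the block). The plexin Plxnd1 gave 0.59. Of 12 follicular and resting B cell genes all 12 were tested, with a median of -0.14, 2 higher in both experiments and 4 lower.

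Of 12 other B1 genes 9 were tested, with a median of 0.12, 2 higher in both experiments and 3 lower. Bhlhe40, the close relative of Bhlhe41, had a log2 signal of 12.40 and 12.34 on the Ackr4ko arrays, against 11.40 and 10.77 on the WT arrays. It rose in Ackr4ko with the block, by a mean of 1.29 ± 0.35 (SE, limma adjusted p = 0.00962 with the block and 0.583 without), while Bhlhe41 gave -0.69. Among 15 genes whose products bind or regulate the 10 proteins, the median was 0.04. The nuclear receptor Nr4a1 passed with the block at a mean of 1.33 (limma adjusted p = 0.0061), but it was -0.93 in experiment 1 and 3.59 in experiment 2. Without the block its limma adjusted p was 1.00.

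**Figure D4:**
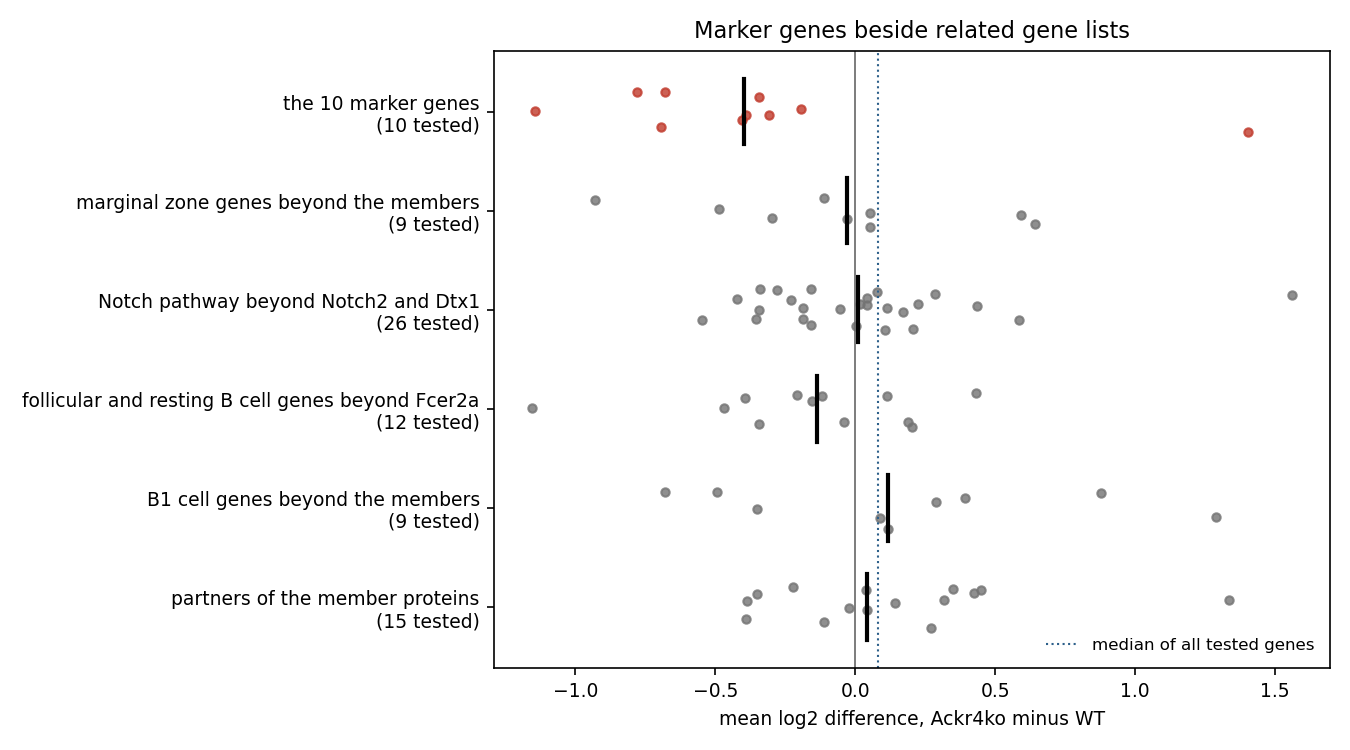
Mean log2 difference, Ackr4ko minus WT, of each tested gene (points) in the 10 markers and in 5 related lists, with the median of each list as a black bar and the median of all tested genes, 0.08, as a dotted line. The median of the 10 markers is -0.40 and those of the related lists run from -0.14 to 0.12.

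Markers of the remaining spleen cells were read beside all 10 genes. Of 10 dendritic cell markers 5 were tested, with a median difference of 1.07, but 2 of these passed the filter through the Ackr4ko arrays alone. Without the filter the median over all 10 was -0.28, but 4 of the 10 were well above background on no array. The lowest signal well above background was 5.84 on WT replicate 2 and 4.60 on Ackr4ko replicate 2, so nothing is read from that median. The summed signal of the list was 62789 and 75422 in Ackr4ko, against 64634 and 63020 in WT. Siglech made the largest part of that sum on every array, with 15.66 and 16.03 in Ackr4ko, against 15.87 and 15.83 in WT. The sum thus mainly follows this 1 gene. The 2 genes that passed through the Ackr4ko arrays alone were Fscn1 and Batf3. They were well above background on both Ackr4ko arrays and on no WT array, at least 2.40-fold and 2.59-fold brighter in Ackr4ko. Since the filter let them in by their Ackr4ko signal, nothing is read from their p. Itgax, Xcr1, Clec9a and Cd209a of this list were well above background on no array. Its other tested genes, Flt3, Zbtb46 and Siglech, were well above background on all 4 arrays. Flt3 gave 13.38 and 12.97 in Ackr4ko, against 12.08 and 12.13 in WT. Zbtb46 gave 7.87 and 8.66 in Ackr4ko, against 7.21 and 7.34 in WT. Both were higher in Ackr4ko without overlap of the groups, as 19% of all tested genes were. In the natural killer list Xcl1 passed with the block (1.31, limma adjusted p = 0.00742), with -0.13 in experiment 1 and 2.76 in experiment 2. Follicular dendritic and stromal markers, which matter because follicular dendritic cells carry Cr2 and Fcer2a, had 3 tested of 8, a median of 0.18 and a summed signal of 5329 and 5693 in Ackr4ko, against 3189 and 5309 in WT. There the smallest p were those of Pecam1 (-1.09) and Mfge8 (0.63), and Cxcl13, Coch, Pdgfrb and Col1a1 were well above background on no array. The part of these cells in the values of the 10 genes was not tested.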

How the data were processed

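Total RNA (50 ng) was labelled with Cy3, per the labels' protocols. Per the submitters' processing notes the software was Agilent Feature Extraction 10.7.3.1, and its deposited output holds each spot's intensity with flags. The authors' value table gives normalized intensity whose making is not given in the sources used here.

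The log2 of the deposited processed signal intensity was set to a common 75th percentile. Control spots and outlier spots were left out, and the 4 spots of a probe averaged. Saturated spots numbered 0. Probes entered the test with at least 50% of their spots well above background on at least 2 of 4 arrays (20862 probes), and a gene took its brightest tested probe (15963 genes). Names came from RefSeq accessions for 28328 probes.

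The test was limma (version 3.58.1, R 4.3.3; lmFit and eBayes, two-sided), with Benjamini-Hochberg adjustment over all tested genes, and was tested on simulated data. Replicate numbers mark the 2 experiments stated in the series description, so they pair arrays. Deviations of same-experiment arrays correlated at 0.42, and blocked values stand beside a result where they change its call. All arrays lay on 1 slide. An exact permutation test of 2 against 2 cannot give p below 0.333.

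The 10 genes and the 14 lists (162 genes) were chosen with earlier results of these data known. Beside the 10 genes, the text names list genes called with or without the block (at most 4 per list) and otherwise the 2 of lowest p. Genes named only as below background were added after their values were seen. So were Cd1d2, Cd2, Flt3, Hes5, Il7r, Nrarp, Prf1, Siglech and Zbtb46. A summed signal adds the linear signals of a list's brightest probes. Some list genes are not reported here.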

Additional observations from a re-analysis of the deposited data

How the results depend on the processing

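With 2 arrays per group, precision is limited by their number. Signs of the 10 mean differences held under quantile normalization, median centring, normexp, both filters on dim probes and the mean of probes, and none of the 10 passed there. The split by experiment moved with the scaling. Under quantile normalization 7 genes were lower in both experiments and under median centring 6, against 5 in the main setting, while 1 stayed higher in both. With 1 array left out, 4 signs turned: Cd9 (range -0.86 to 0.054) without Ackr4ko replicate 1, Cr2 (-0.94 to 0.32) and Fcer2a (-2.07 to 0.51) without Ackr4ko replicate 2, and Dtx1 (-0.63 to 0.24) without WT replicate 1. In the authors' value table, with its genotypes as labelled, all 10 turned: Bhlhe41 0.79, Cd1d1 0.73, Cd5 1.19, Cd9 0.52, Cr2 0.37, Dtx1 0.33, Fcer2a 0.84, Notch2 0.42, Plac8 0.56 and Zbtb32 -1.28, with 7 of them higher in both experiments and 1 lower. The turned signs follow from its exchanged labels. The count of 7 does not follow from them alone, since 5 genes were lower in both experiments in the main setting. How the table was normalized is not given, and the part of this in the count and sizes was not tested. The 2 genes called in limma over all genes became 532 with the replicate block, 0 with the block and quantile normalization (1447 at an unadjusted p under 0.05), 1 with quantile normalization, 19 with normexp, 0 when all 4 arrays had to pass the filter (524) and 0 without a filter (295), 1 in the value table, and 1 to 123 with 1 array left out. With 1 array left out, 24 were called without WT replicate 1 and 123 without WT replicate 2. The block changed no call of the 10 genes other than Zbtb32 and Cd5. List medians of the 5 related lists ranged from -0.44 to 0.34 over these settings, and each turned sign in at least 1 of 12. Medians of the other cell types ranged as follows: B cell identity -0.24 to 0.25, plasma cell -0.26 to 0.39, T cell -0.26 to 0.26 and natural killer -0.64 to 2.23. Macrophage medians ran from -0.45 to -0.027, dendritic -0.28 to 1.39 and neutrophil -0.91 to 0.37. Platelet and erythroid medians ran from -0.76 to 0.31 and follicular dendritic ones from -0.84 to 0.48. For plasma cell, natural killer, dendritic, neutrophil, platelet and erythroid, and follicular dendritic lists the lowest values came without the filter. Leaving out the filter adds genes well above background on no array. Plac8 ranged from -0.69 to -0.10 with 1 array left out. For the other changes the cause was not tested.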

Other observations

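The 10 genes also differed between the experiments within a genotype. In WT cells Zbtb32 was 0.90 and Cd9 0.63 higher on the log2 scale in experiment 2 than in experiment 1, while Dtx1 gave -0.87, Fcer2a -0.52 and Bhlhe41 -0.51. In Ackr4ko cells Cd9 was 0.92 and Plac8 0.59 higher in experiment 2, while Fcer2a gave -2.58, Cr2 -1.26, Cd1d1 -0.81 and Bhlhe41 -0.71. Cd9 and Zbtb32 (0.49 in Ackr4ko) were thus brighter in experiment 2 in both genotypes. Bhlhe41, Fcer2a and Notch2 (-0.35 in WT and -0.38 in Ackr4ko) were dimmer in both. So were Cd1d1 (-0.16 in WT), Cr2 (-0.03 in WT) and Dtx1 (-0.07 in Ackr4ko). Cd5 and Plac8 differed in opposite directions in the genotypes. Each of these values compares 1 array with 1 array, so none has a test.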
